A study of Homo sapiens with 20 samples.

Results

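Claudins are the membrane proteins that seal tight junctions, and keratins 7, 8, 18 and 19 form the intermediate filaments of simple, single-layered epithelia. The 10 genes described are 6 claudins (CLDN3, CLDN4, CLDN5, CLDN6, CLDN7 and CLDN10) and 4 simple epithelial keratins (KRT7, KRT8, KRT18 and KRT19), chosen by name. All 10 were found among the 54435 features of the files, and all 10 were among the 16792 features that had enough counts to be tested. The knockout lines differed from wild type mainly in KRT8, KRT18 and KRT19 at day 4, whereas the claudins that fell during differentiation fell in every line.

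Poly(A) RNA was sequenced from H1, an established human embryonic stem cell line. KO1 and KO2 carry the label of knockout lines for the long noncoding RNA DIGIT, whose gene lies beside the homeobox gene GSC, and the line called WT is wild type. At day 4 cells of KO1, KO2 and WT had been differentiated towards endoderm in RPMI medium that held B27 and Activin A at 50 ng/ml, a TGF-beta family ligand, and at day 0 cells of the same lines were in mTeSR1, a medium for undifferentiated stem cells. There were 2 libraries in each of the 6 groups. How KO1 and KO2 were made is not given in the sources used here, and each is a single line, so a difference between a line and WT may belong to that line. No feature of the files carried a name of DIGIT, so its level was not analysed here and the knockout is taken from the labels.

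A claudin crosses the membrane several times and binds claudins of its own and of the neighbouring cell, and which claudins a cell makes sets which ions and molecules pass between cells. Keratin filaments are built from pairs of a type II keratin, such as KRT7 or KRT8, with a type I keratin, such as KRT18 or KRT19. KRT8 and KRT18 are the earliest keratins of the embryo and mark simple epithelia, among them the gut and other organs that come from endoderm. Gastrulating cells that form definitive endoderm leave an epithelium and later re-form one, and transcription factors of the SNAI, ZEB and TWIST families are known to repress CDH1 and several claudin genes through E-box motifs.

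Promoters of CLDN3 and CLDN4, which fell in every line, and of CLDN6 and CLDN7, which did not, are shown because the E-box bound by SNAI and ZEB factors can be read in them. RefSeq promoters, 250 bases before to 50 after an annotated start on GRCh38.p14, were matched for 6 of the 10 genes. CLDN3 (chr7:73770221-73770520, minus strand) and CLDN4 (chr7:73830746-73831045, plus strand) are neighbours in the RefSeq gene table. CLDN6 lies at chr16:3018134-3018433 on the minus strand, and CLDN7 has a start at chr17:7263164-7263463 and another at chr17:7262429-7262728, both on the minus strand. Each sequence reads 5′ to 3′ with matches to the E-box CAGGTG, or its reverse complement CACCTG, in capitals.
CLDN3: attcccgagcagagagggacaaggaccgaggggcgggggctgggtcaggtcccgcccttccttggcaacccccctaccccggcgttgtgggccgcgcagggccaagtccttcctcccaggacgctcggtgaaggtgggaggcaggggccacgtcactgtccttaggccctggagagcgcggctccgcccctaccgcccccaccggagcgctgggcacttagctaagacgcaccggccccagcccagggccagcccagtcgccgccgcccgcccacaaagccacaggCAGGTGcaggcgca
CLDN4: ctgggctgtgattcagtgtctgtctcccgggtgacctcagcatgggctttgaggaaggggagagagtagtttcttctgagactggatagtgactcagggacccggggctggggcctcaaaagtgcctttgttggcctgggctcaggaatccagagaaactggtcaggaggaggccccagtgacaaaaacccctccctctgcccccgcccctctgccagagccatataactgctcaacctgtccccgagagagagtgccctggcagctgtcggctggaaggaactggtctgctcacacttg
CLDN6: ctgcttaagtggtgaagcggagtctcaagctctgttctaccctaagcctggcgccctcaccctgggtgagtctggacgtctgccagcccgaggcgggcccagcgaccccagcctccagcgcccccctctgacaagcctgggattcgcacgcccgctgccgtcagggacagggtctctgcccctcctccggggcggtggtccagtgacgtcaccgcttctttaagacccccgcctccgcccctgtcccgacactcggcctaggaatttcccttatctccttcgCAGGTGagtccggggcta
CLDN7, the first start: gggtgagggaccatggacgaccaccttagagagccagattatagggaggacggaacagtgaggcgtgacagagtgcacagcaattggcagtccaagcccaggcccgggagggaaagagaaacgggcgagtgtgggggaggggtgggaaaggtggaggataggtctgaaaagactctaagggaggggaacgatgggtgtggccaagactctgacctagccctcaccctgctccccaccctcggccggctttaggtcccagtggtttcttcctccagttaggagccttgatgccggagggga
CLDN7, the second start: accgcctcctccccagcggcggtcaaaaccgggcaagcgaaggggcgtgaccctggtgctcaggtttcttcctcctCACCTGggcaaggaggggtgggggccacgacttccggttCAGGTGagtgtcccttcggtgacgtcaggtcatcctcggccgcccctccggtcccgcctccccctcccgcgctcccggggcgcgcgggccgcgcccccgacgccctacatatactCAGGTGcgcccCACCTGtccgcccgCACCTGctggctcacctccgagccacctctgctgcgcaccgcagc

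The E-box occurred 5 times around the second start of CLDN7, once each in the CLDN3 and CLDN6 promoters, and in neither the CLDN4 promoter nor the first CLDN7 start. It was also not in these letters of the CLDN10 and KRT8 promoters. Of 35116 promoters of the same length, 20.6% held at least 1 match and 3.49% held 2 or more. The grainyhead motif AACCNGTT, searched on both strands, was in none of the 8 promoters of these genes and in 1.73% of all promoters. Matches are letters in a window and were not tested for binding, and they were found both in CLDN3, which fell at day 4, and in CLDN6, which was not called in WT.

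Total counts per library lay between 9942016 and 21394547, and levels are given as depth-scaled counts (CPM) after TMM scaling, so they compare libraries for a gene but not genes with each other. At day 0 the 8 marker genes of pluripotent cells summed to 5183 to 5446 CPM, and at day 4 all 10 markers of definitive endoderm were above 1 CPM in KO1, KO2 and WT. KO1 day 0 replicate 2 stood apart from the other libraries. It sat at −33.3 on the fourth principal component, where the others lay between −5.52 and 21.6, and the chi-square per gene between the KO1 day 0 libraries was 21.8 against 1.89 to 3.88 in the other pairs. KRT18 and CLDN6 were lowest in that library among the day 0 libraries, at 195 and 474 CPM, so results of KO1 at day 0 are also given without it. The labels do not say whether replicates were separate cultures, so each p rests on differences among libraries that may be technical.

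**Figure D1:**
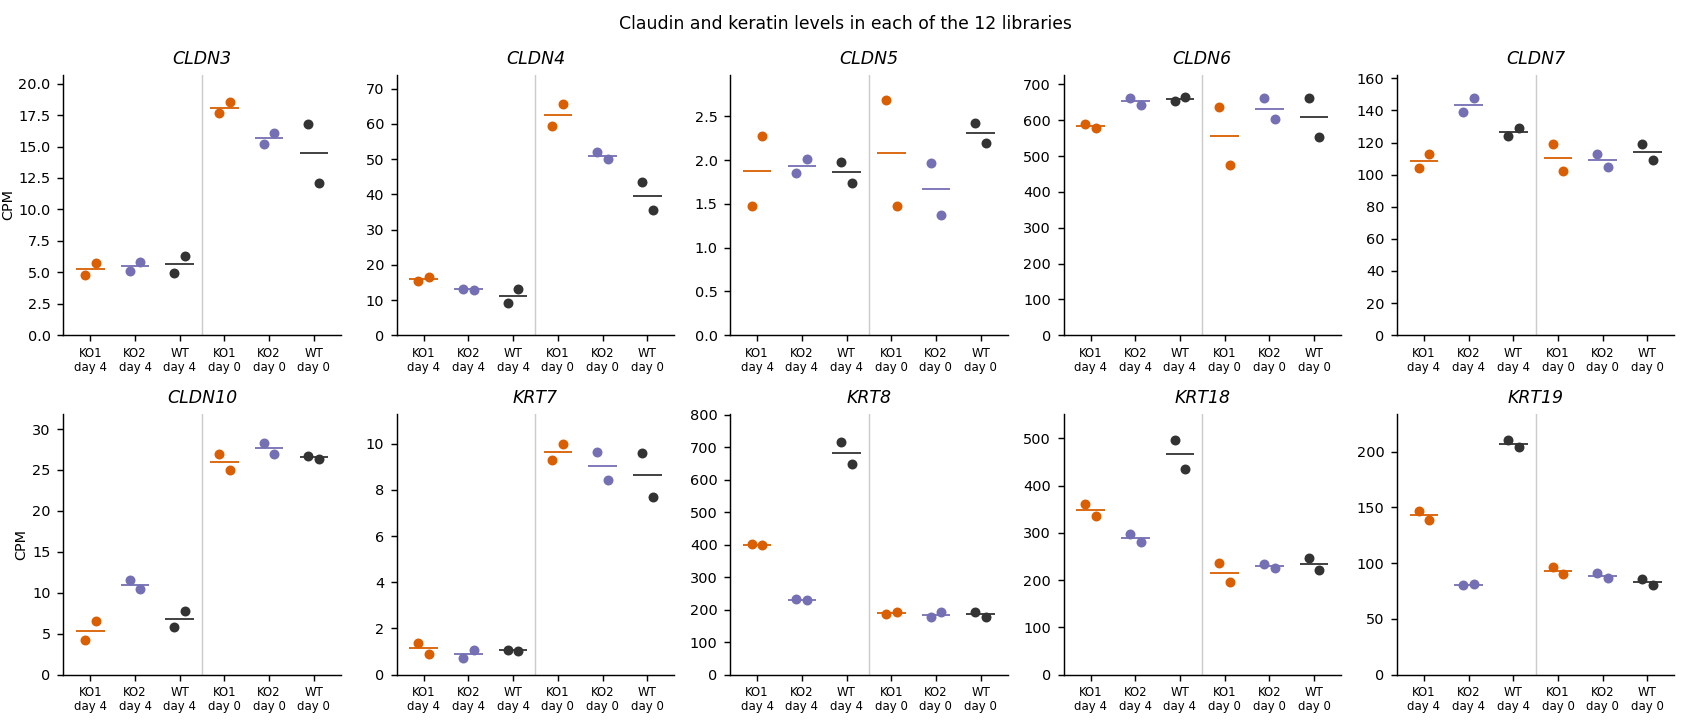
Level of each of the 10 genes in CPM on linear axes from 0, with 1 point per library and a bar at the mean of 2 libraries, day 4 groups left of the grey line and day 0 groups right of it. CLDN3, CLDN4, CLDN10 and KRT7 are low at day 4 in every line, and KRT8 and KRT19 at day 4 stand in the order WT, KO1, KO2 from high to low.

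Between day 0 and day 4, CLDN3, CLDN4 and CLDN10 fell in every line, and 0 of the 6 claudins rose in KO1, 1 in KO2 and 0 in WT. Over all 10 genes 3 were higher and 4 lower at day 4 in each line. Of all features, 29.1% were higher and 29.3% lower in KO1, 24.9% higher and 25.8% lower in KO2, and 24.3% higher and 25.4% lower in WT, so the members' counts lie not far above this background. CLDN4, a barrier-forming claudin, had 9.23 and 13.1 CPM in WT at day 4, against 43.4 and 35.6 CPM in WT at day 0. The WT day 4 libraries lay below both WT day 0 libraries, a 3.49-fold lower level (log2 −1.80, SE 0.15, edgeR adjusted p = 5.28e-08). CLDN3, a close relative of CLDN4, had 4.96 and 6.32 CPM in WT at day 4, against 16.8 and 12.1 CPM in WT at day 0, again without overlap (log2 −1.33, SE 0.18, edgeR adjusted p = 1.73e-05). CLDN10, whose splice forms make ion-selective channels between cells, had 5.80 and 7.80 CPM in WT at day 4, against 26.7 and 26.4 CPM in WT at day 0 (log2 −1.95, SE 0.17, edgeR adjusted p = 8.78e-08). The WT day 0 pair of CLDN10 was close together and both day 4 libraries lay far below it.

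These claudins also fell in both knockout lines. In KO1, CLDN4 had 15.4 and 16.6 CPM at day 4 against 59.5 and 65.7 CPM at day 0, a log2 change of −1.97 (SE 0.14). In KO2, CLDN4 had 13.2 and 12.8 CPM at day 4 against 51.9 and 50.1 CPM at day 0, also a log2 change of −1.97 (SE 0.14). Day 4 and day 0 libraries of CLDN4 were separate in both lines. CLDN3 changed by log2 −1.77 in KO1 and −1.50 in KO2, and CLDN10 by log2 −2.25 in KO1 and −1.33 in KO2, and each passed the test. The day 4 level of CLDN10 was 4.23 and 6.53 CPM in KO1 and 11.6 and 10.4 CPM in KO2, so the KO2 libraries lay above those of KO1 and above the WT pair.

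The other 3 claudins changed little with the day. CLDN6, a claudin of embryonic epithelia and of pluripotent stem cells, had 653 and 664 CPM in WT at day 4, against 663 and 554 CPM in WT at day 0, and the groups overlapped (log2 0.12, SE 0.11, edgeR adjusted p = 0.419). Over all 12 libraries CLDN6 ranged from 474 to 664 CPM and took 69.1% to 81.9% of the reads counted to the 6 claudins, a share that also reflects transcript length. CLDN7, which binds the adhesion protein EPCAM and is often found along the sides of epithelial cells, had 143 ± 6.28 CPM in KO2 at day 4 against 109 ± 5.42 CPM in KO2 at day 0 (SD, n = 2 each), and it rose in that line (log2 0.39, SE 0.09, edgeR adjusted p = 0.00188). In KO1 and WT the change of CLDN7 was −0.03 and 0.15 (log2, SE 0.09 each) and was not called with all libraries. Without KO1 day 0 replicate 1 or replicate 2, the WT change of CLDN7 was log2 0.17 and passed (edgeR adjusted p = 0.0319 and 0.0329), and without KO1 day 0 replicate 1 CLDN6 rose in KO1 (log2 0.30, edgeR adjusted p = 0.00223). CLDN5, the claudin of blood vessel lining, stayed between 1.37 and 2.69 CPM in all libraries, where 3 counts correspond to 0.133 to 0.294 CPM, and it was not called in any line.

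Of the 4 keratins, KRT8, KRT18 and KRT19 rose and KRT7 fell in WT. KRT8, the type II partner of KRT18, had 716 and 647 CPM in WT at day 4, against 193 and 177 CPM in WT at day 0, a 3.68-fold higher level (log2 1.88, SE 0.08, edgeR adjusted p = 2.14e-11). KRT18 had 496 and 436 CPM in WT at day 4, against 247 and 221 CPM in WT at day 0 (log2 1.00, SE 0.10, edgeR adjusted p = 4.24e-07). KRT19, a type I keratin of ducts and gut lining, had 210 and 204 CPM in WT at day 4, against 85.8 and 80.7 CPM in WT at day 0 (log2 1.31, SE 0.08, edgeR adjusted p = 1.1e-09). All 3 genes had separate day 4 and day 0 libraries in WT, and KRT8 changed the most of them.

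KRT7, a type II keratin of glandular and ductal epithelia, went the other way in all lines. In KO1 it had 1.38 and 0.894 CPM at day 4, against 9.28 and 10 CPM at day 0. In KO2 it had 0.722 and 1.07 CPM at day 4, against 9.65 and 8.42 CPM at day 0. In WT it had 1.07 and 1.03 CPM at day 4, against 9.59 and 7.70 CPM at day 0. Day 4 and day 0 libraries were separate in each line. Its day 4 libraries held 9 to 16 reads each, above the floor of 3 counts but imprecise. The fitted changes were −3.11 in KO1 (SE 0.24), −3.30 in KO2 (SE 0.26) and −3.02 in WT (SE 0.25) on the log2 scale.

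In KO1 KRT8, KRT18 and KRT19 rose, and in KO2 KRT8 and KRT18 rose. KRT8 had 402 and 398 CPM in KO1 at day 4 against 185 and 193 CPM at day 0 (log2 1.08, SE 0.08), and 231 and 228 CPM in KO2 at day 4 against 177 and 191 CPM at day 0 (log2 0.32, SE 0.08, edgeR adjusted p = 0.00269). KRT18 rose by 0.69 in KO1 (SE 0.10) and by 0.33 in KO2 (SE 0.10, edgeR adjusted p = 0.00987) on the log2 scale. The KO2 rise of KRT18 was not called without KO2 day 4 replicate 1 (edgeR adjusted p = 0.068) or without KO2 day 0 replicate 2 (0.067). KRT19 rose by 0.62 in KO1 (SE 0.07), while in KO2 it had 80.4 and 81 CPM at day 4 against 90.8 and 86.4 CPM at day 0 (log2 −0.13, SE 0.08, edgeR adjusted p = 0.162). KRT19 was called lower at day 4 in KO2 under 2 of 19 alternatives, with upper-quartile factors (log2 −0.19, edgeR adjusted p = 0.045) and with only the groups compared in the fit (log2 −0.14, edgeR adjusted p = 0.0437). Without KO1 day 0 replicate 2 the KO1 changes were 1.11, 0.56 and 0.57 for KRT8, KRT18 and KRT19, and all were called.

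In each line 7 of the 10 genes passed the test between days, where 58.4% of all features passed in KO1, 50.7% in KO2 and 49.6% in WT. The median log2 change of the 4 keratins was 0.65 in KO1, 0.09 in KO2 and 1.15 in WT, and that of the 6 claudins was −0.94 in KO1, −0.64 in KO2 and −0.82 in WT, where the median of all features was 0 in each line.

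**Figure D2:**
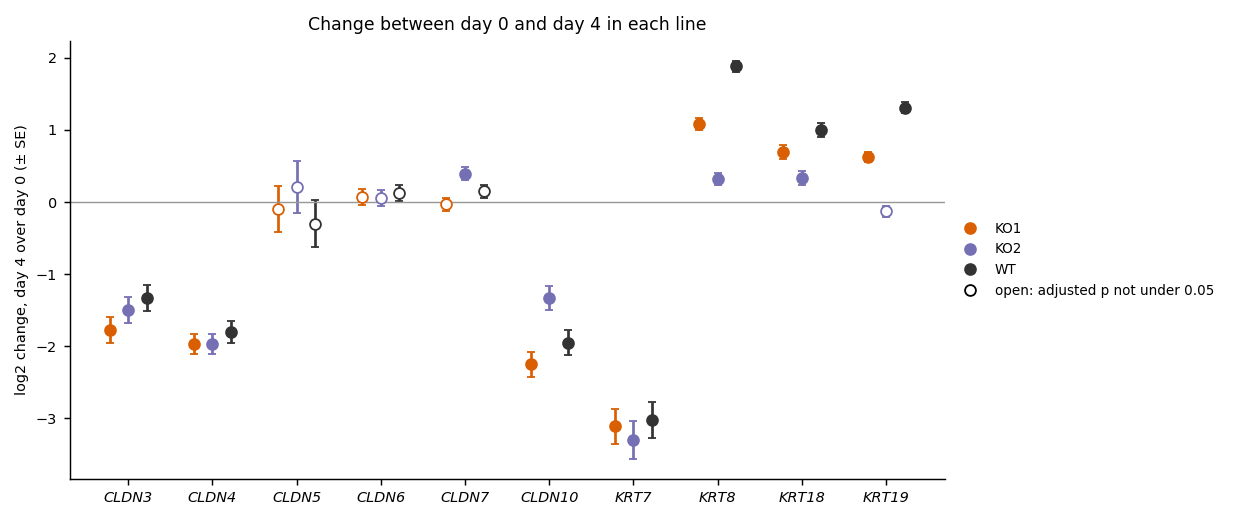
Log2 change of each gene at day 4 over day 0 in KO1, KO2 and WT, with bars of 1 SE, open where edgeR's adjusted p was not under 0.05. CLDN3, CLDN4, CLDN10 and KRT7 lie below 0 in every line, and KRT8, KRT18 and KRT19 fall in the order WT, KO1, KO2, from 1.88 in WT to 0.32 in KO2 for KRT8.

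Set directly against WT at day 4, both knockout lines had less KRT8, KRT18 and KRT19, KO2 more so than KO1. In KO1, 4 of the 10 genes passed (1 higher, 3 lower), where 20.0% of all features passed, 10.5% higher and 9.45% lower. In KO2, 4 of 10 passed (1 higher, 3 lower), where 28.1% of all features did, 13.6% higher and 14.5% lower. The day 4 level of KRT8 was 402 and 398 CPM in KO1 and 231 and 228 CPM in KO2, against 716 and 647 CPM in WT. The 3 pairs did not overlap. KRT8 was lower than WT by log2 −0.77 in KO1 (SE 0.07, edgeR adjusted p = 3.61e-06) and by log2 −1.57 in KO2 (SE 0.08, edgeR adjusted p = 1.09e-09), 1.70-fold and 2.97-fold lower.

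KRT19 followed the same order. It had 147 and 139 CPM in KO1 and 80.4 and 81 CPM in KO2, against 210 and 204 CPM in WT, with no overlap between the lines. The difference from WT was log2 −0.53 in KO1 (SE 0.07, edgeR adjusted p = 0.000126) and log2 −1.36 in KO2 (SE 0.08, edgeR adjusted p = 4.14e-09). KRT18 differed less, at 360 and 336 CPM in KO1 and 297 and 280 CPM in KO2, against 496 and 436 CPM in WT. These pairs also did not overlap. Its difference from WT was log2 −0.42 in KO1 (SE 0.10, edgeR adjusted p = 0.0057) and log2 −0.69 in KO2 (SE 0.10, edgeR adjusted p = 6.48e-05). The KO1 call of KRT18 was lost without KO1 day 4 replicate 2 (edgeR adjusted p = 0.0709) or WT day 4 replicate 1 (0.0752). KRT7, near 1 CPM in all lines, did not pass in either.

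The 2 knockout lines also differed from each other at day 4. In KO2 against KO1, 5 of the 10 genes passed (2 higher, 3 lower), where 25.2% of all features did, 10.9% higher and 14.4% lower. KRT8 was lower in KO2 by log2 −0.80 (SE 0.08, edgeR adjusted p = 1.44e-06) and KRT19 by log2 −0.82 (SE 0.08, edgeR adjusted p = 1.09e-06). KRT18 was lower in KO2 by log2 −0.27 (SE 0.10, edgeR adjusted p = 0.0478), a call at the threshold that 8 of 19 alternatives lost, with adjusted p up to 0.278.

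Markers of definitive endoderm were lower in KO2 than in WT at day 4, as KRT8, KRT18 and KRT19 were. Most markers of pluripotent cells were higher there. At day 4 the 10 endoderm markers summed to 5455 to 5543 CPM in KO1 and 1015 to 1256 CPM in KO2, against 4939 to 5480 CPM in WT, and no marker was at 0. CER1 alone averaged 4490 CPM in KO1, 866 CPM in KO2 and 4032 CPM in WT, so these sums mostly followed that gene. Against WT, 4 of the 10 were lower in KO1 and 10 of 10 were lower in KO2, with median log2 differences of −0.41 and −2.75. The 8 markers of pluripotent cells summed to 4235 to 4276 CPM in KO1 and 4999 to 5101 CPM in KO2 at day 4, against 4327 to 4328 CPM in WT. Against WT, 1 of the 8 was higher and 1 lower in KO1, and 6 were higher and 1 lower in KO2, with median log2 differences of 0 and 0.48. The part of either list in the keratin differences was not tested. In bulk RNA fewer cells of a type and less RNA per cell cannot be told apart. Markers of trophoblast or amnion, whose cells also make these keratins, summed to 9.42 to 9.75 CPM in KO1, 6.42 to 7.70 CPM in KO2 and 7.48 to 8.01 CPM in WT at day 4 over 13 genes, with CDX2 at 0 in KO1, CGB and XAGE2 at 0 in KO2 and TFAP2B and XAGE2 at 0 in WT. Markers of surface ectoderm summed to 17.2 to 18.1 CPM in KO1, 11.2 to 12.8 CPM in KO2 and 19.9 to 23.6 CPM in WT at day 4 over 7 genes, with none at 0. Most of each sum was KRT5, KRT13 and KRT15, which averaged 3.93, 8.53 and 7.09 CPM in WT at day 4. With KRT14 they are also among the other keratins described below, so the 2 lists are not separate readings. Of the 10 endothelial markers, which bear on CLDN5, PECAM1 and EMCN were at 0 in KO1 and WT and EMCN was at 0 in KO2 at day 4, and the sums were 172 to 179 CPM in KO1 and 133 to 150 CPM in KO2, against 156 to 168 CPM in WT. Most of each endothelial sum was KDR, which averaged 135 CPM in KO1, 119 CPM in KO2 and 130 CPM in WT. Markers of visceral or yolk sac endoderm summed to 17.5 to 19.3 CPM in KO1 at day 4 over 8 genes. Their sums were 11.3 to 11.5 CPM in KO2 and 10.6 to 12.8 CPM in WT, with TTR at 0 in each. AFP averaged 11.5 CPM in KO1, 7.61 CPM in KO2 and 4 CPM in WT. Of the 4 tested, 1 was higher and 1 lower in KO1 than in WT, and 0 were higher and 2 lower in KO2.

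Claudins differed from WT at day 4 in a single gene per line. CLDN4 was higher in KO1, at 15.4 and 16.6 CPM against 9.23 and 13.1 CPM in WT (log2 0.51, SE 0.16, edgeR adjusted p = 0.0305). The pairs did not overlap, but the WT libraries were spread, and the call was lost without KO1 day 4 replicate 1 (edgeR adjusted p = 0.0878), KO1 day 4 replicate 2 (0.176) or WT day 4 replicate 1 (0.317, log2 0.28). CLDN10 was higher in KO2, at 11.6 and 10.4 CPM against 5.80 and 7.80 CPM in WT (log2 0.68, SE 0.18, edgeR adjusted p = 0.00939). That call was lost without KO2 day 4 replicate 1 (edgeR adjusted p = 0.0795) or WT day 4 replicate 1 (0.139).

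CLDN7 and CLDN10 were higher in KO2 than in KO1. CLDN10 differed by log2 1.00 (SE 0.19, edgeR adjusted p = 0.000863) and CLDN7, at 143 ± 6.28 CPM in KO2 against 108 ± 6.01 CPM in KO1 (SD, n = 2 each), by log2 0.40 (SE 0.09, edgeR adjusted p = 0.00352). The CLDN7 call was lost without KO1 day 4 replicate 1 (edgeR adjusted p = 0.063) or KO2 day 4 replicate 2 (0.0525). CLDN6 had 590 and 578 CPM in KO1 and 662 and 643 CPM in KO2 at day 4, against 653 and 664 CPM in WT, and did not pass in any of these comparisons with all libraries. Without KO1 day 0 replicate 1 or replicate 2, CLDN6 (log2 −0.19, edgeR adjusted p = 0.0344 and 0.0346) and CLDN7 (log2 −0.24, edgeR adjusted p = 0.00855 and 0.0085) were lower in KO1 than in WT at day 4. CLDN3 and CLDN5 differed from WT by −0.10 to 0.06 on the log2 scale at day 4, with SE of 0.20 for CLDN3 and 0.34 for CLDN5.

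**Figure D3:**
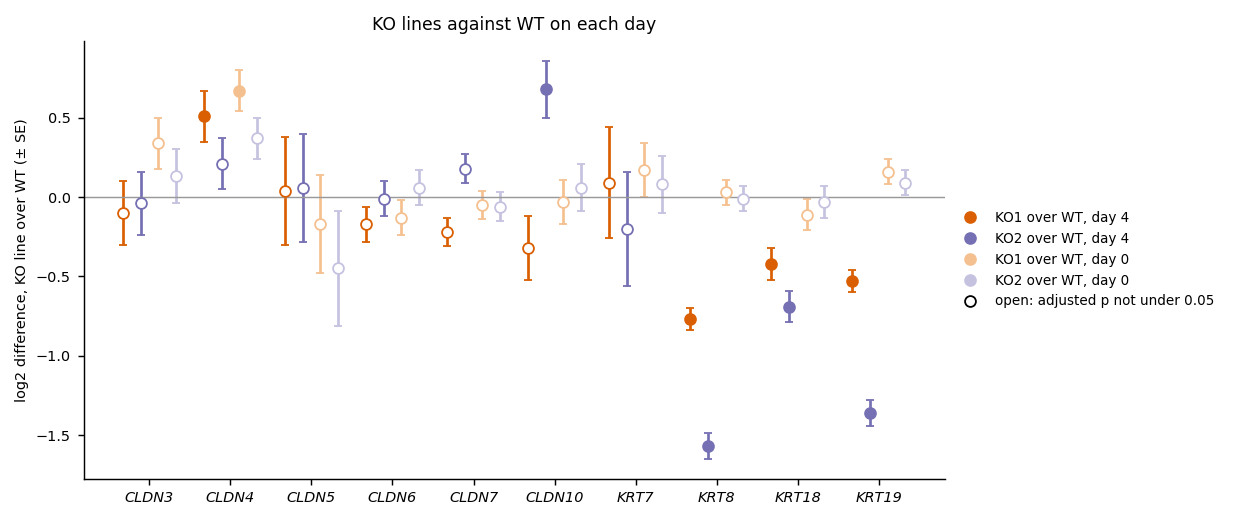
Log2 difference of KO1 and KO2 from WT at day 4 (dark) and day 0 (pale) for each gene, with bars of 1 SE, open where edgeR's adjusted p was not under 0.05. KRT8, KRT18 and KRT19 lie below 0 in both lines at day 4, between −1.57 and −0.42, and between −0.11 and 0.16 at day 0.

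The change between days was itself tested against that of WT. Of the 10 genes 2 passed in KO1, both lower, where 9.84% of all features did and 4.84% were lower. In KO2 3 passed, all lower, where 14.0% of all features did and 7.52% were lower, 6.45% higher. For KRT8 the change was smaller than in WT by log2 −0.80 in KO1 (SE 0.11, edgeR adjusted p = 0.000243) and by log2 −1.56 in KO2 (SE 0.11, edgeR adjusted p = 3.01e-07). For KRT19 it was smaller by log2 −0.70 in KO1 (SE 0.11, edgeR adjusted p = 0.00079) and by log2 −1.45 in KO2 (SE 0.11, edgeR adjusted p = 7.35e-07). KRT8 and KRT19 passed in both lines under all 19 alternative settings.

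KRT18 differed in the change between days in KO2, by log2 −0.67 (SE 0.14, edgeR adjusted p = 0.00406). In KO1 its difference of log2 −0.31 (SE 0.14) did not pass (edgeR adjusted p = 0.172), but without KO1 day 0 replicate 2 it was log2 −0.45 and passed (0.00369). No claudin passed with all libraries, and CLDN10 in KO2 came closest, with log2 0.62 (SE 0.23, edgeR adjusted p = 0.0863), or log2 0.60 without either KO1 day 0 library (0.0292). CLDN3 and CLDN4 had differences of −0.44 (SE 0.26) and −0.16 (SE 0.20) in KO1, and of −0.17 (SE 0.26) and −0.17 (SE 0.21) in KO2. None of these 4 differences passed.

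The 3 keratins did not all keep their proportions, which a ratio of counts within a library shows without any scaling between libraries. KRT8 reads per KRT18 read at day 4 were 1.12 and 1.18 in KO1 and 0.78 and 0.815 in KO2, against 1.44 and 1.48 in WT. At day 0 they were 0.782 and 0.992 in KO1 and 0.759 and 0.849 in KO2, against 0.781 and 0.805 in WT. The KO2 ratio at day 4 thus lay within the range of day 0, whereas KO1 and WT lay above it. KRT19 reads per KRT18 read at day 4 were 0.408 and 0.413 in KO1 and 0.271 and 0.289 in KO2, against 0.424 and 0.467 in WT, and KO2 lay below all other libraries, whose lowest ratio was 0.347 in WT at day 0. At day 0 this ratio was 0.406 and 0.462 in KO1 and 0.389 and 0.384 in KO2, against 0.347 and 0.366 in WT. In KO1 the day 4 and day 0 ratios of KRT19 to KRT18 thus overlapped. The ratios describe unequal change within a library and do not show that KRT18 was constant.

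Summed over the 4 keratins, day 4 libraries held 910 and 874 CPM in KO1 and 609 and 590 CPM in KO2, against 1423 and 1288 CPM in WT, while day 0 libraries of all lines held 486 to 535 CPM. Summed over the 6 claudins the 12 libraries held 687 to 871 CPM, with day 4 and day 0 overlapping. Within the claudins, CLDN6 reads per CLDN7 read stayed between 4.35 and 5.85.

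**Figure D4:**
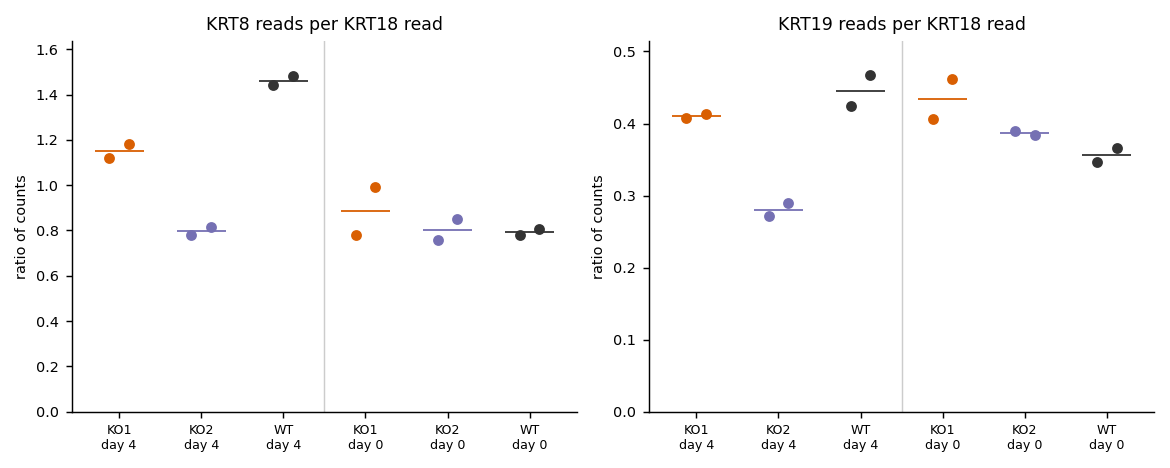
Reads of KRT8 (left panel) and of KRT19 (right panel) per KRT18 read in each library, on linear axes from 0, with 1 point per library and a bar at the mean of 2 libraries. For KRT8, KO2 at day 4 (0.78 and 0.815) lies among the day 0 libraries, below KO1 and WT at day 4.

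At day 0, before differentiation, CLDN4 was the only one of the 10 genes called in any comparison of the lines. In KO1 against WT 1 gene passed, where 0.244% of all features did, 0.0596% higher and 0.185% lower. In KO2 against WT and in KO2 against KO1 edgeR called 0 of 10, where 0.149% (0.0596% higher, 0.0893% lower) and 0.0119% of all features passed, and in each 1 gene, CLDN4, had an unadjusted p under 0.05 (DESeq2 also called 0 in both). CLDN4 had 59.5 and 65.7 CPM in KO1 and 51.9 and 50.1 CPM in KO2, against 43.4 and 35.6 CPM in WT, and no pair overlapped another. CLDN4 in KO1 was higher by log2 0.67 (SE 0.13, edgeR adjusted p = 0.0385), or by log2 0.60 without KO1 day 0 replicate 2 (0.0166). Over the 19 alternatives 9 lost the call, with adjusted p from 0.0651 to 0.664, among them the fits without WT day 0 replicate 1 (0.0986) and without WT day 0 replicate 2 (0.664, log2 0.53). In KO2 the difference of CLDN4 was log2 0.37 (SE 0.13, edgeR adjusted p = 0.745). KRT8, KRT18 and KRT19 differed from WT by −0.11 to 0.16 on the log2 scale in either line at day 0. Without KO1 day 0 replicate 1, KRT18 (log2 −0.26, edgeR adjusted p = 0.0249) and CLDN6 (log2 −0.36, 0.00254) were lower in KO1 than in WT, which leaves the library that stands apart alone in its group.

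Other genes of junctions and filaments gave the setting of these changes. They comprised 114 genes in 7 lists, of which 98 were tested, with 55 of them called in WT between days, where 49.6% of all features were called, 24.3% higher and 25.4% lower. The counts of the lists are descriptions to be read against these shares, and genes are named from those whose higher group averaged at least 5 CPM. Of 7 other claudins tested in WT, 2 rose and 2 fell, and those with the largest changes were CLDN11, the claudin of myelin and of the testis barrier (log2 1.33), and CLDN19, a claudin of kidney and retina (log2 −1.92). Of 22 other tight junction genes 4 rose, led by the scaffold gene MAGI3 (log2 1.37) and occludin, OCLN (log2 0.74), and 7 fell, led by the adhesion molecule gene JAM2 (log2 −2.86) and the scaffold gene TJP3 (log2 −2.14). Of 23 epithelial regulators and surface proteins 3 rose and 12 fell. KLF5, a transcription factor of epithelial progenitors, had 29.2 CPM at day 4 against 1.81 CPM at day 0 in WT, and EPCAM had 272 CPM at day 4 against 193 CPM at day 0. Of those that fell, LAD1, which codes for the anchoring filament protein ladinin, had 18.3 CPM at day 4 against 45.7 CPM at day 0 in WT, and OVOL1, an epithelial transcription factor, had 3.21 CPM at day 4 against 6.26 CPM at day 0.

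Among filament and desmosome genes in WT, VIM, SYNM, PERP and DSP rose. Of 18 other intermediate filament and linker genes 8 rose and 1 fell. VIM, which codes for the mesenchymal filament protein vimentin, had 767 ± 25.4 CPM at day 4 against 223 ± 10.5 CPM at day 0 (SD, n = 2 each), and SYNM rose by log2 2.31. Of 10 desmosome genes 5 rose and 3 fell, with PERP, at 335 CPM at day 4 against 78.2 CPM at day 0, and desmoplakin, DSP (log2 1.20), which ties keratin filaments to desmosomes, in front. Of 11 other keratins 3 rose, led by KRT1 (log2 1.56) and KRT13 (log2 1.17), and 1 fell, although KRT1 and KRT13 stayed at or below 8.53 CPM on average in every group.

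At day 4 several of the other keratins and desmosome genes were lower in KO2 than in WT. Of all features 10.5% were higher and 9.45% lower in KO1 than in WT, and 13.6% were higher and 14.5% lower in KO2 than in WT. In KO2 against WT, 0 of 11 other keratins were higher and 5 were lower, among them KRT1 (log2 −1.46) and KRT13 (log2 −1.40), with a list median of −1.31 against 0.01 over all features. DESeq2 called 4 of the 11. These genes averaged from 0.341 CPM (KRT80) to 14.7 CPM (KRT10) in KO2 at day 4, so the list median rests partly on low counts. In KO1 against WT edgeR called 0 of the 11, with 4 at an unadjusted p under 0.05. Of 10 desmosome genes 0 were higher and 4 lower in KO2 than in WT, led by plakoglobin, JUP (log2 −0.65), and PERP (log2 −0.60). In KO1 3 of them were higher and 1 lower than in WT. Of 23 epithelial regulators and surface proteins 10 were higher and 3 lower in KO2 than in WT. KLF4 (log2 1.43) and LAD1 (log2 1.00) were higher in KO2 and KLF5 was lower (log2 −1.22), and CDH1, which codes for E-cadherin, had 501 ± 9.36 CPM in KO2 against 334 ± 13.8 CPM in WT (SD, n = 2 each). Of 7 other claudins 0 were higher and 2 lower in KO2 than in WT. Of 22 other tight junction genes 8 were higher and 3 lower in KO2. In KO1 edgeR called 0 of the 7 other claudins, with 2 at an unadjusted p under 0.05. There 4 of the other tight junction genes were higher and 4 lower than in WT. Whether a list differed between the lines was not tested as a list.

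Most repressors of epithelial genes were higher in KO1 than in WT at day 4. Of 7 repressors 5 were higher and 1 lower in KO1 than in WT. In KO1 SNAI1 had 23.1 ± 0.378 CPM against 12.3 ± 1.96 CPM in WT and ZEB2 had 6.90 ± 1.10 CPM against 1.61 ± 0.00651 CPM in WT (SD, n = 2 each). In KO2 edgeR called 0 of the 7 against WT, with 3 at an unadjusted p under 0.05, and 6 of the 7 were lower in KO2 than in KO1, 1 higher. VIM was also higher in KO1, at 1291 ± 76.4 CPM against 767 ± 25.4 CPM in WT (SD, n = 2 each), by log2 0.75. CDH1 had 361 ± 13.5 CPM in KO1 against 334 ± 13.8 CPM in WT (SD, n = 2 each), a difference that was not called (log2 0.11, SE 0.08, edgeR adjusted p = 0.365). CDH1 is 1 of the 23 epithelial regulators and surface proteins tested. Of these 3 were higher and 6 lower in KO1 than in WT, where 10.5% of all features were higher and 9.45% lower. In the same comparison CLDN3 differed by log2 −0.10 (SE 0.20), CLDN4 by 0.51 (SE 0.16) and CLDN7 by −0.22 (SE 0.09).

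At day 0 edgeR called 0 of the 98 companion genes in KO1 against WT, in KO2 against WT and in KO2 against KO1, with 15, 7 and 3 at an unadjusted p under 0.05, and DESeq2 called 1, 0 and 0.

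**Figure D5:**
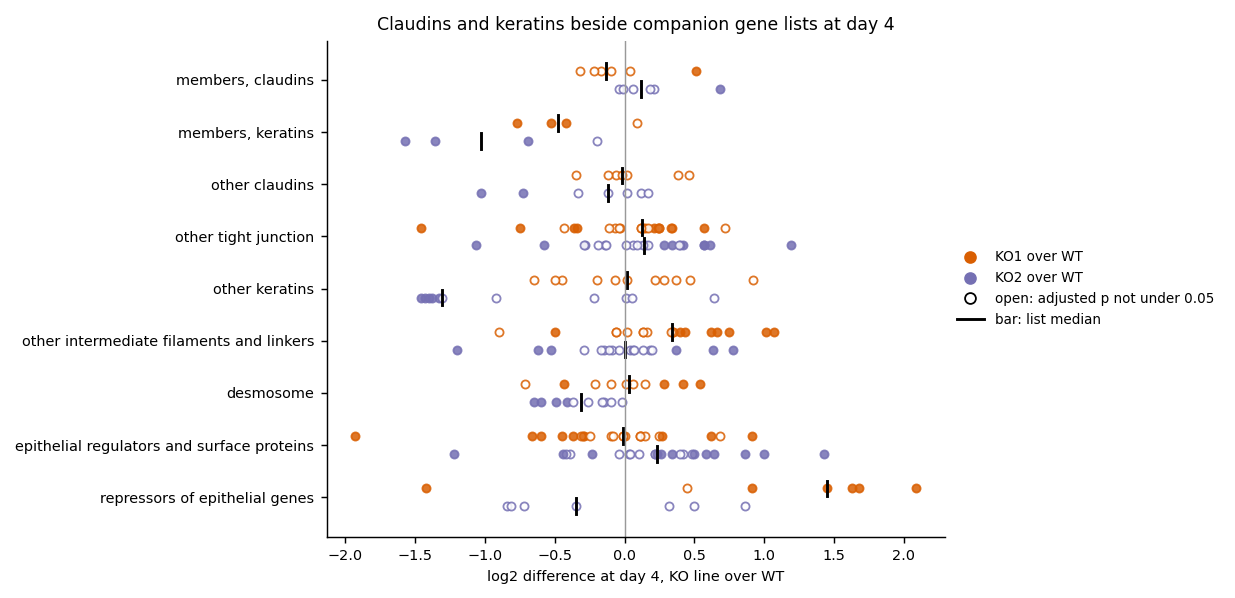
Log2 difference from WT at day 4 of every tested gene in the claudin and keratin groups and in the 7 companion lists, KO1 above KO2 in each row, filled where edgeR's adjusted p was under 0.05, with a black bar at the list median. In KO2 the medians of the keratins lie left of 0, at −1.03 for the 4 described and −1.31 for the others, and in KO1 the median of the repressors lies at 1.45, with SNAI3 at −1.42. The other keratins averaged only 0.341 to 14.7 CPM in KO2 at day 4.

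Among the 10 genes themselves, the level profiles over the 6 groups were most alike for CLDN6 and CLDN7, with a root mean square difference of 0.106 log2 units after centring each gene. CLDN5 lay 0.184 from CLDN6 and 0.191 from CLDN7, KRT18 and KRT19 differed by 0.224, KRT8 and KRT19 at 0.26, CLDN3 and CLDN4 at 0.283, and KRT8 and KRT18 at 0.333. Profiles were also compared with 11673 other genes with at least 5 CPM on average. Genes of the companion and marker lists, and features named only by a locus or transcript code, were not among these candidates. Of the candidates, ANKRD6 (0.0848) and TP53I11 (0.09) were closest to KRT8, MYADML (0.0309) and PLRG1 (0.0561) to KRT18, and CDKN1C (0.0713) and CAMKK2 (0.0774) to KRT19. TMPRSS2 (0.0709) was closest to CLDN3, SLC38A4 (0.163) to CLDN4, PCOLCE (0.049) and MYCN (0.0798) to CLDN10, DROSHA (0.0157) to CLDN6, TMEM14C (0.028) to CLDN7, NOTCH2NL (0.0549) to CLDN5 and HTR3A (0.182) to KRT7. These are descriptions over 6 group means, and flat genes such as CLDN6 have many close neighbours.

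Some of these values may share reads with related features. The pseudogene KRT19P2, the third closest profile to KRT19 at 0.0855, had 13.2 CPM in KO1, 7.55 CPM in KO2 and 19.7 CPM in WT at day 4, against 8, 8.81 and 7.04 CPM in KO1, KO2 and WT at day 0. KRT8P41 had 3.98 CPM in KO1, 1.94 CPM in KO2 and 5.82 CPM in WT at day 4, and KRT18P55 had 2.64, 2.16 and 3.19 CPM. At day 4 these pseudogene copies of KRT8, KRT18 and KRT19 stood in the same order as their parent genes. Reads of parent and copy may be exchanged or left uncounted. In the RefSeq table KRT8 and KRT18 overlap each other, CLDN7 overlaps ELP5, CLDN10 overlaps DZIP1 and an antisense gene, and KRT7 overlaps an antisense gene and pseudogenes. The strand setting of the counting is not given in the sources used here, so reads of overlapping genes may not be fully told apart.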

How the data were processed

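RNA-seq libraries of H1 cells were made with a stranded poly(A) kit, per the labels' protocols. The authors aligned reads with Bowtie2 2.1.0 to hg19 and deposited whole-number read counts per feature from HTSeq 0.6.1, per the submitters' processing notes. Which annotation, strand setting and mapping-quality minimum were used is not given in the sources used here. Reads outside any feature made up 29.2% to 30.5% of a library and reads set aside for low alignment quality 19.3% to 22.2%, and such rows stayed out of library sizes and tests. The 8 ChIP-seq samples are not analysed here.

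The 10 genes and the companion lists were chosen with earlier results of these data known. Features were kept with edgeR's filterByExpr, scaled by TMM (factors 0.937 to 1.05) and tested with edgeR's quasi-likelihood test in a fit of all 12 libraries with 6 groups and 6 residual degrees of freedom. Adjusted p values are Benjamini-Hochberg values over 16792 features with a threshold of 0.05. The SE is the log2 change divided by the square root of F. Calls were checked on simulated counts. CPM uses scaled totals, and a prior count of 2 entered only log CPM. A floor of 3 counts corresponds to 0.133 to 0.294 CPM and covers counting error only. From each companion list the genes named are the 2 largest called changes each way, the group with the higher mean reaching at least 5 CPM. CDH1, VIM and SNAI3 in the comparisons of each KO line with WT were added after their values were seen. For each member the 3 genes with the most alike profile were sought among gene symbols outside the members, the companion lists and the marker lists. Same-numbered replicates were checked for pairing by the correlation of their deviations, and the labels link them only by a number. Promoters come from RefSeq (GRCh38.p14), a build other than that of the counts. Software was R 4.3.3, edgeR 4.0.16, limma 3.58.1, DESeq2 1.42.0 and matplotlib 3.10.9. Alternatives were other scaling factors and filters, DESeq2, a fit of the groups compared alone, a replicate block and leaving out each library.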

Additional observations from a re-analysis of the deposited data

Results flagged for a closer look

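The change between day 0 and day 4 of 3 keratins differed between a knockout line and WT by the test of the difference itself. For KRT8 the difference of changes was log2 −0.80 in KO1 (SE 0.11, edgeR adjusted p = 0.000243) and log2 −1.56 in KO2 (SE 0.11, edgeR adjusted p = 3.01e-07). For KRT19 it was log2 −0.70 in KO1 (SE 0.11, edgeR adjusted p = 0.00079) and log2 −1.45 in KO2 (SE 0.11, edgeR adjusted p = 7.35e-07). For KRT18 it was log2 −0.67 in KO2 (SE 0.14, edgeR adjusted p = 0.00406). Both day 4 libraries of each line lay on the same side of WT in all of these genes.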

How the results depend on the processing

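Each of 110 results, the 10 genes in 11 comparisons, was computed under 19 alternatives. Of the 2090 values 2039 stayed on the same side of the threshold, 28 lost their call, 23 gained one and 0 changed sign after being called. With only the groups compared in the fit, 5 genes were lower in KO1 than in WT at day 4 (CLDN6 and CLDN7 added), 2 were higher in KO2 than in WT at day 4 (CLDN7 added), 0 were higher in KO1 than in WT at day 0, and 1 gene, CLDN10, had a higher change in KO2 than in WT, as it also had, with 1 gene, without the filter on low counts. That fit uses fewer libraries; the cause of the other moves was not tested. Leaving out 1 library in turn, the genes higher in KO1 than in WT at day 4 numbered 0 to 1 and the lower ones 2 to 5, those higher in KO2 than in WT 0 to 1, those higher in KO2 than in KO1 1 to 2 and the lower ones 2 to 3. At day 0 genes higher in KO1 than in WT numbered 0 to 1 and lower ones 0 to 2, and in KO2 against KO1 0 to 1 each way. Without KO1 day 0 replicate 1, where the library that stands apart is alone, KO1 at day 0 was lower than WT in CLDN6 (log2 −0.36, edgeR adjusted p = 0.00254) and KRT18 (log2 −0.26, 0.0249), and features higher in KO1 numbered 1935 against 10 with all libraries and lower ones 1854 against 31. A group left with 1 library is assumed to vary like the others. Over all alternatives the background at day 4 moved too: features higher in KO1 than in WT numbered 770 to 2685 (1767 with all libraries) and lower 602 to 2629 (1587), and in KO2 against WT 953 to 3183 were higher (2286) and 1421 to 3442 lower (2436). Changes between days called higher than in WT numbered 0 to 1 in KO2 and called lower 2 to 3 in KO1. With a replicate block no call of the 10 genes changed, and KRT8 in KO2 against WT at day 4 stayed at log2 −1.57 (edgeR adjusted p = 2.01e-09). Same-numbered libraries shared little deviation: over 15 pairs of groups the correlation of same-numbered deviations was −0.0403 to 0.155. At day 4 total counts were 12374436 to 13117737 in replicate 1 libraries and 15351844 to 15411604 in replicate 2 libraries. Whether same-numbered libraries were handled together was not tested. Depth limits CLDN5 on both days and KRT7 at day 4, whose SE reached 0.36 between groups. For the change between days against that of WT, the SE reached 0.49 for CLDN5 and 0.41 for KRT7.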
